A study of Homo sapiens with 16 samples.

Results

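The subject is the difference between the response of a UQCRFS1 knockout (KO) line to SP-2509 and the response of its parent line A673. For each gene it is the log2 fold change of SP-2509 over DMSO in the KO line minus the same log2 fold change in A673. A positive value means that the log2 response was more positive, or less negative, in the KO line, and says nothing of the level after SP-2509. All genes of the deposited tables belong to it: 21633 of 39249 genes had enough reads to be tested, and the response of 2315 of them differed between the lines by edgeR's quasi-likelihood test at a Benjamini-Hochberg adjusted p under 0.05, the threshold behind every call below. The change inside each line then sorted the responses into lost, reduced, kept, enlarged, reversed and gained ones.

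Poly(A) RNA was sequenced from 4 groups of 2 libraries each. They were UQCRFS1 KO cells with 500 nM SP-2509 for 48 h, UQCRFS1 KO cells with 0.1% DMSO for 48 h, A673 cells with 500 nM SP-2509 for 48 h, and A673 cells with 0.1% DMSO for 48 h. A673 is an Ewing sarcoma cell line that carries the EWSR1-FLI1 fusion, and the KO line is 1 clone derived from it, so the effect of the knockout and that of the clone cannot be told apart. No label says that the libraries of a group came from separate cultures, and the p-values then measure the spread between libraries, which may be technical. In bulk RNA, fewer cells of a type and less RNA per cell cannot be told apart. Libraries held 37877638 to 56171036 counts. All 13 Ewing sarcoma line markers stood at 1 CPM, a read count scaled to library size, or more in every library, and those of blood cells summed to 1.3 to 3.28 CPM. Those of fibroblasts summed to 142 to 151 CPM (KO, SP-2509), 254 to 260 CPM (KO, DMSO), 149 to 163 CPM (A673, SP-2509) and 240 to 264 CPM (A673, DMSO), and those of epithelium to 53.7 to 109 CPM.

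UQCRFS1 is the Rieske iron-sulfur subunit of respiratory complex III, which passes electrons from ubiquinol to cytochrome c in the inner mitochondrial membrane. SP-2509 is an inhibitor of LSD1, the histone demethylase encoded by KDM1A, which works in repressor complexes with RCOR1. In Ewing sarcoma EWSR1-FLI1 both activates and represses genes, and LSD1 takes part in that program.

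The UQCRFS1 transcript itself was lower in the KO line. It stood at 88.2 and 77.8 CPM in KO cells with SP-2509 and at 58.6 and 60.9 CPM in KO cells with DMSO, against 116 and 119 CPM in A673 with SP-2509 and 102 and 98.6 CPM in A673 with DMSO. Every KO library lay below every A673 library, and transcripts remained in all of them. Its response difference was 0.24 ± 0.09 (SE, n = 2 libraries per group) and did not pass the test (Benjamini-Hochberg adjusted p = 0.0814, quasi-likelihood test of edgeR). With upper-quartile factors it was 0.29 (adjusted p = 0.0198, same test), and without the second SP-2509 library of the KO line it was 0.32 (adjusted p = 0.03, same test). Genes averaging 5 CPM or more, and protein-coding genes alone, gave 0.3 in each fit, also called. The differences of KDM1A (-0.07 ± 0.08), EWSR1 (0.15 ± 0.08) and FLI1 (-0.06 ± 0.08) did not pass the test either.

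Most of the response to SP-2509 ran the same way in both lines. SP-2509 changed 11837 genes in the KO line (54.7% of those tested, 29.6% higher and 25.1% lower) and 12541 in A673 (58% of those tested, 31.6% higher and 26.4% lower). Of the 9799 genes called in both lines, 9653 (98.5%) changed in the same direction and 146 in opposite directions. Across 10477 genes averaging 5 CPM or more the responses of the lines, which share no library, had Pearson's r = 0.93 and Spearman's rho = 0.92, given as a description. Genes are not independent replicates.

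Against that shared response, the difference between the lines was called for 2315 genes (10.7% of those tested), 654 higher in the KO line (3.02%) and 1661 lower (7.68%). Of these, 395 differed by at least 2-fold, 140 higher and 255 lower, and the median size of a called difference was 0.49 on the log2 scale. The median over all tested genes was -0.02. The share of calls that were higher was 28.3%. It was 40.2% with upper-quartile factors, 43.7% among genes averaging 5 CPM or more, 39.6% without the second DMSO library of the KO line and 41.4% when only protein-coding genes outside the histone list were fitted. Upper-quartile factors shifted the median response of all tested genes to -0.136 in the KO line and to -0.208 in A673 (0 and -0.026 by TMM), with 43.6% and 41.6% of the calls inside each line higher, against 54.1% and 54.4% by TMM. Without the first SP-2509 library of A673, 1313 genes were called, 380 higher and 933 lower. Higher calls numbered 424 without the second SP-2509 library of A673, 434 without the first DMSO library of the KO line and 421 without the first SP-2509 library of the KO line. Lower calls numbered 1087 without the first DMSO library of A673 and 1107 without the second DMSO library of the KO line. With the replicate number as a block, higher calls numbered 991.

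**Figure D1:**
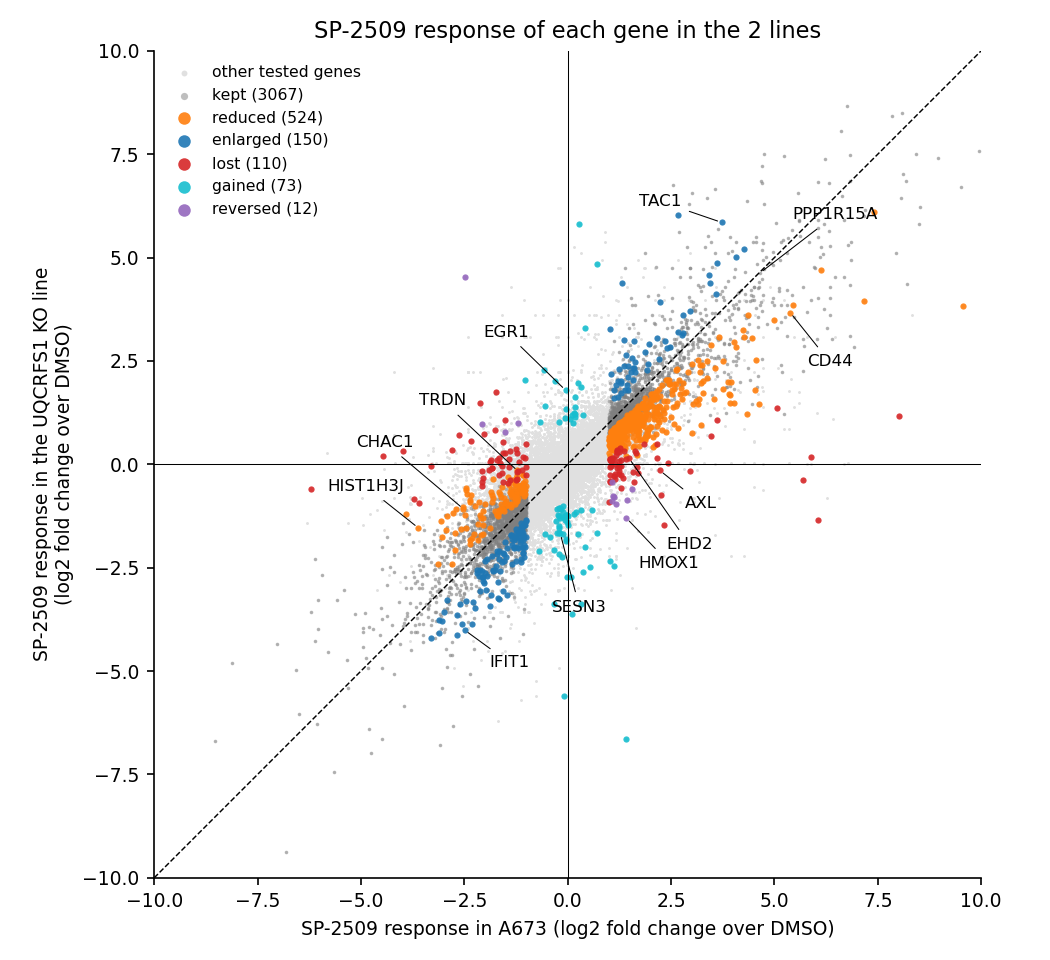
SP-2509 response of each tested gene in the UQCRFS1 KO line (vertical axis, log2 fold change over DMSO) against that in A673 (horizontal axis, same unit); the dashed line marks equal responses and colours mark the classes. Of the 4984 genes that changed at least 2-fold in A673, 3067 kept responses scatter about the dashed line. The 524 reduced responses lie nearer to the horizontal axis and 12 reversed ones across it. Another 1121 were unresolved, with a median of 35.2% of the A673 response in the KO line.

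Kinds of RNA moved unequally between the lines. Protein-coding genes, with 530 higher and 1616 lower of 14593 tested, had a median difference of -0.06. Long non-coding genes had 0.13 (53 higher, 26 lower of 3709) and pseudogenes 0.16 (11 higher, 8 lower of 1935). Small RNA genes, most of which carry no poly(A) tail, had the highest median at 0.55 (23 higher, 0 lower of 555). Protein-coding genes held 86.9% and 87.2% of the counts in KO cells with SP-2509 and 84.4% and 84.2% in KO cells with DMSO, against 92.9% and 93% in A673 with SP-2509 and 88.1% and 87.8% in A673 with DMSO. The A673 libraries with SP-2509 thus stood above all others in this share. The part of this in the gene differences was not tested beyond the fit of protein-coding genes alone, in which 2403 genes were called, 1907 of them among the 2315.

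Sorting by the A673 response gave 2294 genes that rose and 2690 that fell by at least 2-fold there. A lost response had a called difference and no call in the KO line. A reduced or enlarged one had a called difference and a smaller or larger change in the same direction, a reversed one a called change in the opposite direction, and a kept one a call in the same direction with no called difference. Of the risers, 1465 were kept in the KO line, 407 were reduced, 59 lost, 8 reversed and 51 enlarged. The remaining 304 risers were unresolved. Of the fallers, 1602 were kept, 117 reduced, 51 lost, 4 reversed and 99 enlarged, and 817 were unresolved. The median reduced riser had 62.8% of its A673 log2 response in the KO line. The median unresolved riser had 35.5% and the median unresolved faller 35.1%, with no called difference. Only 915 of the 3067 kept genes had a 95% interval of the difference within 1.5-fold, so for most kept genes a smaller or larger response is not told apart from an equal one.

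Sorting by A673 favours genes whose A673 response was measured large, so the same sorting was made from the KO line. Of the 1879 genes that rose at least 2-fold in the KO line, 177 had a larger response in A673 and 96 a smaller one, so among risers the larger response was more often that of A673 from either side. Of the 2334 genes that fell in the KO line, 43 had a larger response in A673 and 205 a smaller one. Among fallers the balance thus depended on the line that was sorted. Responses gained in the KO line, with no call in A673, numbered 73, of which 23 rose and 50 fell. Reduced risers outnumbered enlarged ones in every alternative fit and leave-out run at the 2-fold minimum, with 302 against 56 in the fit of protein-coding genes alone. Among A673 fallers the order was not stable, with 69 reduced against 91 enlarged without the first DMSO library of the KO line and 74 against 81 without its first SP-2509 library. Without the first SP-2509 library of A673, reduced responses in both directions numbered 349 and enlarged ones 99, against 524 and 150 with all libraries. Lost responses numbered 65 without the first DMSO library of A673 and 71 without its first SP-2509 library, against 110, and reversed ones 7 without the second DMSO library of the KO line, against 12. Lost fallers numbered 90 with the replicate number as a block, 25 without the first DMSO library of A673, 32 without its first SP-2509 library and 18 in the fit of protein-coding genes alone.

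**Figure D2:**
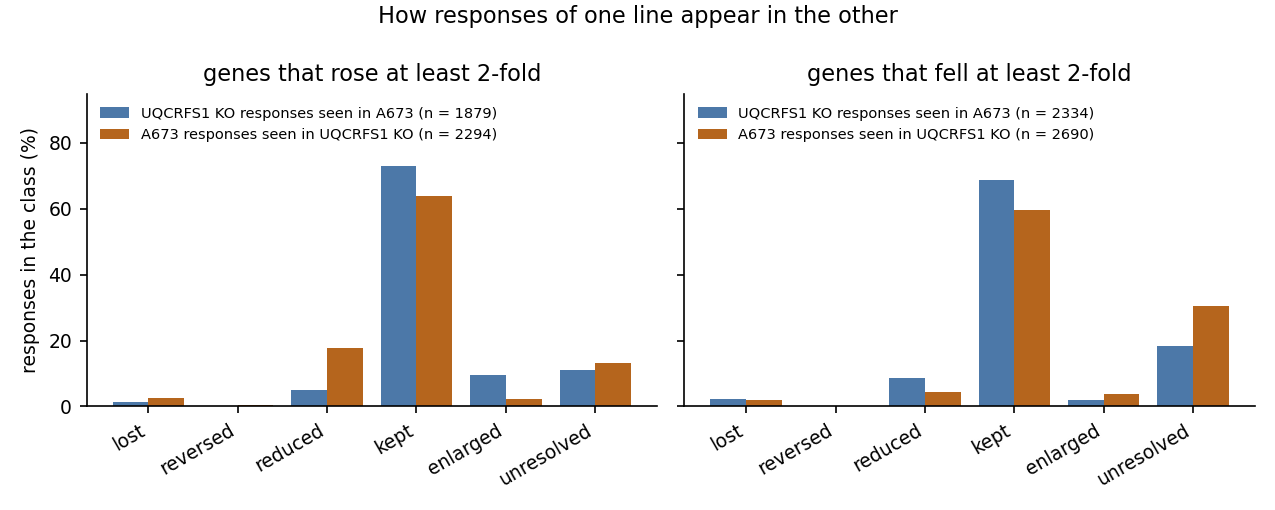
Share of the responses of at least 2-fold in each class (vertical axis, percent), for UQCRFS1 KO responses looked up in A673 (left bars) and A673 responses looked up in the KO line (right bars), for genes that rose and genes that fell. Kept responses make up 59.6% to 72.9%, and among risers the reduced class holds 17.7% of the A673 responses and 5.11% of the KO responses.

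Genes that SP-2509 changed in both of the other KO lines, of MRPL45 and CYC1, gave a view whose selecting contrasts held no library of the comparison. The selection was not fully separate, since the filter, the scaling factors and the estimate of the spread came from all 16 libraries. The 1609 genes that rose in both had a median response of 0.93 in the UQCRFS1 KO line and 1.04 in A673, with a median difference of -0.10 (86 higher, 309 lower). The 1103 genes that fell in both had medians of -0.90 and -0.90 and a median difference of -0.05 (85 higher, 145 lower). Over leave-outs of single libraries the first ranged from -0.14 to -0.06 and the second from -0.09 to 0.02, and with protein-coding genes alone they were -0.05 and 0.

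The lines differed with SP-2509 alone more often than with DMSO alone, among higher and lower differences both. With DMSO 6658 genes differed between KO line and A673 (30.8% of those tested), and with SP-2509 8253 did (38.2%). Of the 1661 genes with a lower difference, the lines differed with SP-2509 only in 709, with DMSO only in 350, in both states in 581 and in neither in 21. Of the 654 with a higher difference these counts were 267, 141, 240 and 6. Among the lower differences 1185 genes were lower in the KO line than in A673 with SP-2509, and 645 were higher in the KO line with DMSO.

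The clearest reversal was HMOX1, heme oxygenase 1, which breaks down heme. It stood at 1.31 and 1.47 CPM in KO cells with SP-2509 and at 3.42 and 3.43 CPM in KO cells with DMSO, against 6.44 and 5.14 CPM in A673 with SP-2509 and 1.99 and 2.35 CPM in A673 with DMSO. No group overlapped another: the KO line was above A673 with DMSO and below it with SP-2509. HMOX1 fell by 1.3 in the KO line and rose by 1.42 in A673, a difference of -2.71 ± 0.20 (Benjamini-Hochberg adjusted p = 3.98e-09, quasi-likelihood test of edgeR). OPTN, the autophagy receptor optineurin, was the other reversed gene that met the naming conditions. It had 3.96 and 4.02 CPM in KO cells with SP-2509 and 7.09 and 6.85 CPM in KO cells with DMSO, against 8.46 and 7.47 CPM in A673 with SP-2509 and 3.31 and 3.97 CPM in A673 with DMSO. Its difference was -1.94 ± 0.14 (Benjamini-Hochberg adjusted p = 1.82e-09, quasi-likelihood test of edgeR). No reversed faller met those conditions.

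Responses lost in the KO line were led by AXL, a receptor tyrosine kinase that binds GAS6. AXL had 0.98 and 0.976 CPM in KO cells with SP-2509 and 1.17 and 1.00 CPM in KO cells with DMSO, against 6.20 and 6.63 CPM in A673 with SP-2509 and 1.19 and 1.56 CPM in A673 with DMSO. It rose by 2.23 on the log2 scale in A673, while its change of -0.15 in the KO line was not called. The A673 libraries with SP-2509 stood apart from all others. The difference was -2.38 ± 0.25 (Benjamini-Hochberg adjusted p = 6.64e-07, quasi-likelihood test of edgeR). EHD2, an ATPase at the neck of caveolae, had 6.47 and 6.87 CPM in KO cells with SP-2509 and 5.71 and 6.31 CPM in KO cells with DMSO, against 22.1 and 20 CPM in A673 with SP-2509 and 6.99 and 8.14 CPM in A673 with DMSO. The A673 libraries with SP-2509 stood alone, and the difference was -1.33 ± 0.12. TGM2, the protein-crosslinking transglutaminase 2 (-1.74 ± 0.20), and FAM19A2, a secreted chemokine-like protein (-1.41 ± 0.12), were lost risers as well.

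Among lost fallers, TTYH2, a membrane protein of the tweety family, had 18.7 and 19.2 CPM in KO cells with SP-2509 and 17.4 and 16.8 CPM in KO cells with DMSO, against 3.81 and 4.86 CPM in A673 with SP-2509 and 8.68 and 9.08 CPM in A673 with DMSO. It was higher in the KO line in both states, fell in A673 by 1.03, and its change of 0.15 in the KO line was not called. Its difference was 1.18 ± 0.14 (Benjamini-Hochberg adjusted p = 6.29e-06, quasi-likelihood test of edgeR). TRDN, triadin of the calcium release complex of muscle, had a difference of 1.03 ± 0.11. The antisense gene SLC25A25-AS1 stood at 1.23 ± 0.20, and without a stated strand its reads cannot be told apart from those of SLC25A25. The small nucleolar RNA SNORD12, which lies in a host gene, stood at 0.87 ± 0.25 (Benjamini-Hochberg adjusted p = 0.0313, quasi-likelihood test of edgeR), and its call was lost without either DMSO library of A673 (0.87 in both), the first SP-2509 library of A673 (0.64), the first DMSO library of the KO line (0.77) or the second SP-2509 library of the KO line (0.75).

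Gained responses were led by EGR1, an immediate early transcription factor. EGR1 stood at 173 and 180 CPM in KO cells with SP-2509 and at 56.7 and 45.3 CPM in KO cells with DMSO, against 214 and 189 CPM in A673 with SP-2509 and 217 and 199 CPM in A673 with DMSO. Only the KO libraries with DMSO were low, and the difference was 1.84 ± 0.23 (Benjamini-Hochberg adjusted p = 0.000888, quasi-likelihood test of edgeR). SESN3, a sestrin that restrains mTORC1, had 3.84 and 4.02 CPM in KO cells with SP-2509 and 13.2 and 11.9 CPM in KO cells with DMSO, against 1.11 and 1.28 CPM in A673 with SP-2509 and 1.17 and 1.56 CPM in A673 with DMSO. The KO line lay above A673 in both states and fell in it alone, with a difference of -1.49 ± 0.25. AP3B2, the neuronal beta subunit of the AP-3 adaptor (1.21 ± 0.19), and the small nucleolar RNA SNORA79 (1.37 ± 0.24) rose in the KO line, and ENTPD3, an ectonucleotidase, fell there (-1.38 ± 0.22). ABCG1, a cholesterol exporter, was a gained faller at -1.40 ± 0.39 (Benjamini-Hochberg adjusted p = 0.0214, quasi-likelihood test of edgeR). Its call was lost without the first DMSO library of A673 (-0.99), the first or second SP-2509 library of A673 (-1.41 and -1.38), the second DMSO library of the KO line (-1.26) or the first SP-2509 library of the KO line (-1.23).

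Reduced responses kept their direction. MGLL, which hydrolyses monoacylglycerols, rose by 1.82 in the KO line and by 3.75 in A673 (difference -1.93 ± 0.23). It reached 2.68 and 2.97 CPM in KO cells with SP-2509, over 0.81 and 0.781 CPM in KO cells with DMSO, against 6.03 and 5.45 CPM in A673 with SP-2509, over 0.368 and 0.486 CPM in A673 with DMSO. SH2D5, an adaptor with an SH2 domain, stood at -1.71 ± 0.31. CD44, the hyaluronan receptor, rose by 3.67 in the KO line and by 5.38 in A673 (difference -1.71 ± 0.48; Benjamini-Hochberg adjusted p = 0.0241, quasi-likelihood test of edgeR). CD44 lay at 0.079 and 0.16 CPM in KO cells with DMSO, and its call was lost without the second of these libraries (-1.10), the first DMSO (-1.61) or SP-2509 (-1.63) library of A673 or the second SP-2509 library of the KO line (-1.57).

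Enlarged responses ran the other way. TAC1, the precursor of substance P, rose by 5.85 in the KO line and by 3.72 in A673 (difference 2.14 ± 0.45). TAC1 lay at only 0.079 and 0.14 CPM in KO cells with DMSO, and with SP-2509 no difference between the lines was called. PTPRO, a receptor tyrosine phosphatase, differed by 1.63 ± 0.31, with a mean of 0.209 CPM in KO cells with DMSO and 4.05 CPM in A673 with DMSO. MMP1, interstitial collagenase, rose to 442 and 396 CPM in KO cells with SP-2509, against 13.1 and 15.7 CPM in KO cells with DMSO, and to 3036 and 3568 CPM in A673 with SP-2509, against 273 and 273 CPM in A673 with DMSO. MMP1 was lower in the KO line in both states, and its fold response was larger there by 1.27 ± 0.17. ATP8B3, a phospholipid flippase, fell further in the KO line (-1.51 ± 0.32), as did DCN, the matrix proteoglycan decorin (-1.54 ± 0.37), whose call was lost without the first SP-2509 library of A673 (-1.42; Benjamini-Hochberg adjusted p = 0.0955, quasi-likelihood test of edgeR).

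Strong responses could also match closely. PPP1R15A, which directs a phosphatase to eIF2 alpha, had 726 and 734 CPM in KO cells with SP-2509 and 29.6 and 29.9 CPM in KO cells with DMSO, against 813 and 780 CPM in A673 with SP-2509 and 29.4 and 34.3 CPM in A673 with DMSO. It rose by 4.62 in the KO line and by 4.64 in A673, a difference of -0.03 ± 0.13 with a 95% interval within 1.5-fold. IL7R, a cytokine receptor subunit (-0.22 ± 0.17), and EVA1A, a regulator of autophagy (-0.17 ± 0.18), were kept risers of this kind. MAP2K6, a kinase of p38 (0.09 ± 0.17), PIR, the nuclear protein pirin (-0.08 ± 0.11), and the complement gene C7 (0.03 ± 0.22) were kept fallers.

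**Figure D3:**
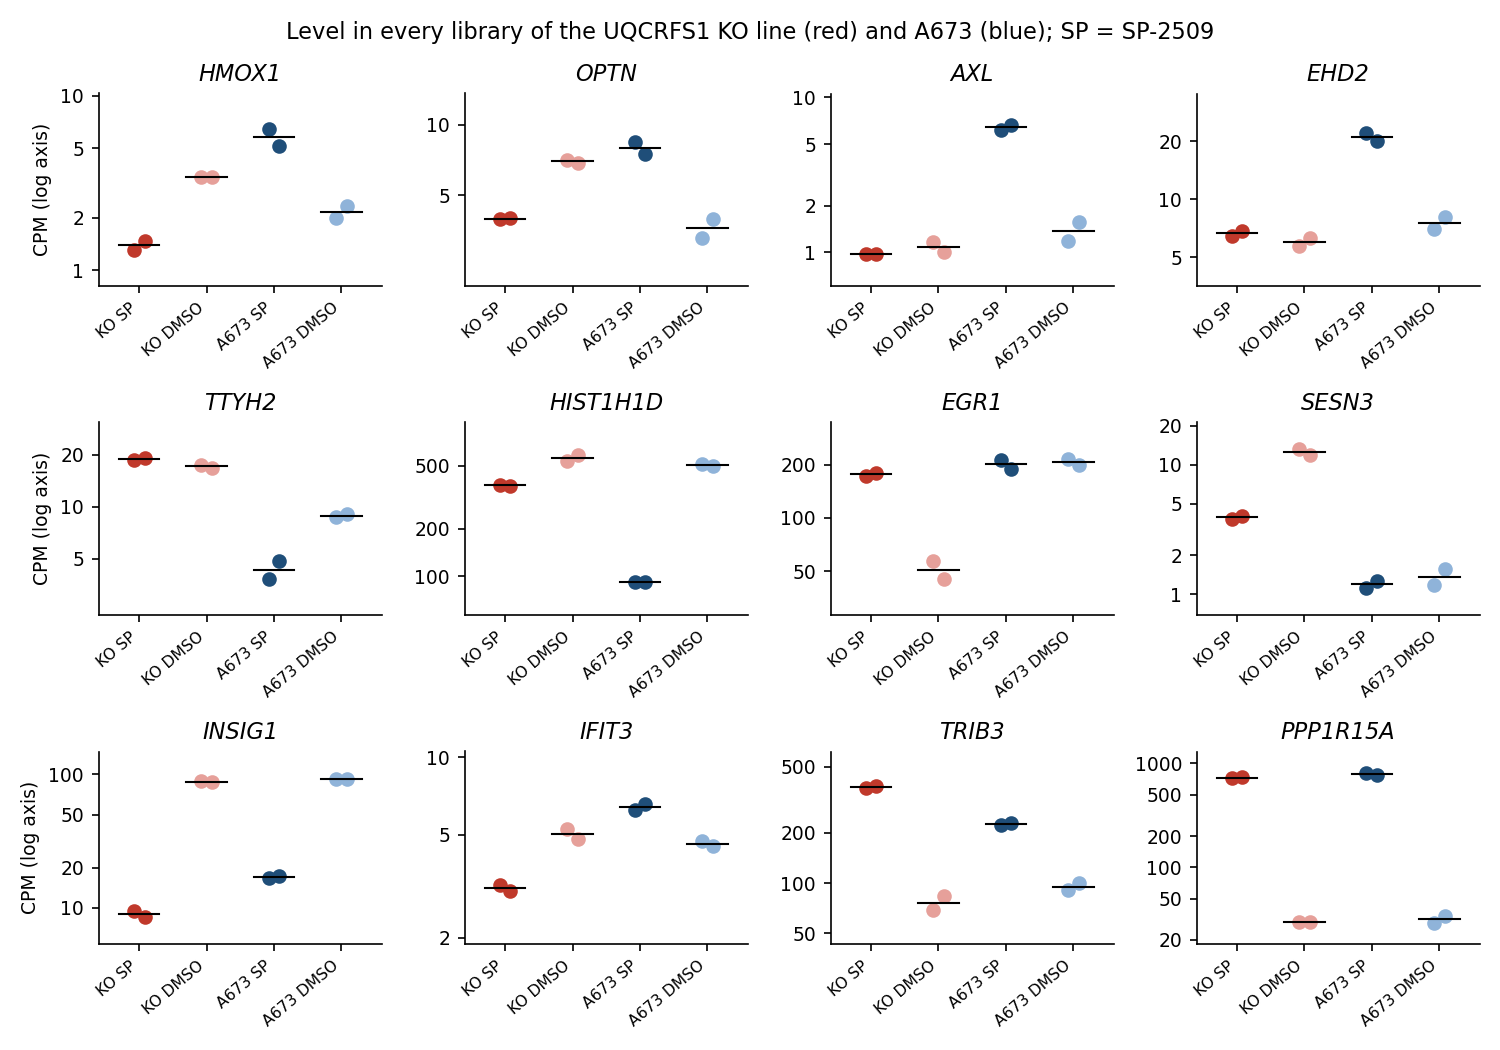
CPM of 12 genes in every library (dots, logarithmic axis; horizontal lines are means of 2 libraries) in KO cells with SP-2509, KO cells with DMSO, A673 with SP-2509 and A673 with DMSO. AXL and EHD2 are high only in A673 with SP-2509, EGR1 is low only in KO cells with DMSO, and PPP1R15A rises alike in both lines.

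Histone genes gave the highest median difference of the lists examined. The list names 60 genes, of which 33 were absent from the deposited data under the listed symbols. Of 26 tested members, 17 had a higher difference and 0 a lower one, with a median of 0.97. The list fell at the median by 0.35 in the KO line, where 13 members fell and 4 rose, and by 1.31 in A673, where 25 fell and 0 rose. HIST1H1B, a linker histone, had 971 and 941 CPM in KO cells with SP-2509 and 1542 and 1615 CPM in KO cells with DMSO, against 217 and 210.0 CPM in A673 with SP-2509 and 1232 and 1070.0 CPM in A673 with DMSO. Only the A673 libraries with SP-2509 were far below the rest, and the difference was 1.71 ± 0.10 (Benjamini-Hochberg adjusted p = 3.23e-11, quasi-likelihood test of edgeR). HIST1H1D (1.88 ± 0.08), HIST1H1C (1.45 ± 0.08) and the core histone HIST1H3J (2.07 ± 0.10) moved likewise. With DMSO 7 members were higher and 1 lower in the KO line than in A673, and with SP-2509 18 were higher and 0 lower.

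Replication-dependent histone messages end in a stem-loop and carry no poly(A) tail, as most small RNAs carry none, and their shares of the counts are given side by side. The histone list held 0.819% and 0.784% of the counts in KO cells with SP-2509 and 1.09% and 1.06% in KO cells with DMSO, against 0.377% and 0.351% in A673 with SP-2509 and 1.02% and 0.913% in A673 with DMSO. Small RNA genes held 3.38% and 3.14% in KO cells with SP-2509 and 3.82% and 3.08% in KO cells with DMSO, against 1.84% and 1.67% in A673 with SP-2509 and 2.68% and 2.32% in A673 with DMSO. Both shares were lowest in the A673 libraries with SP-2509, and the part of this in the histone result was not tested. Near-identical copies make single histone genes uncertain.

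**Figure D4:**
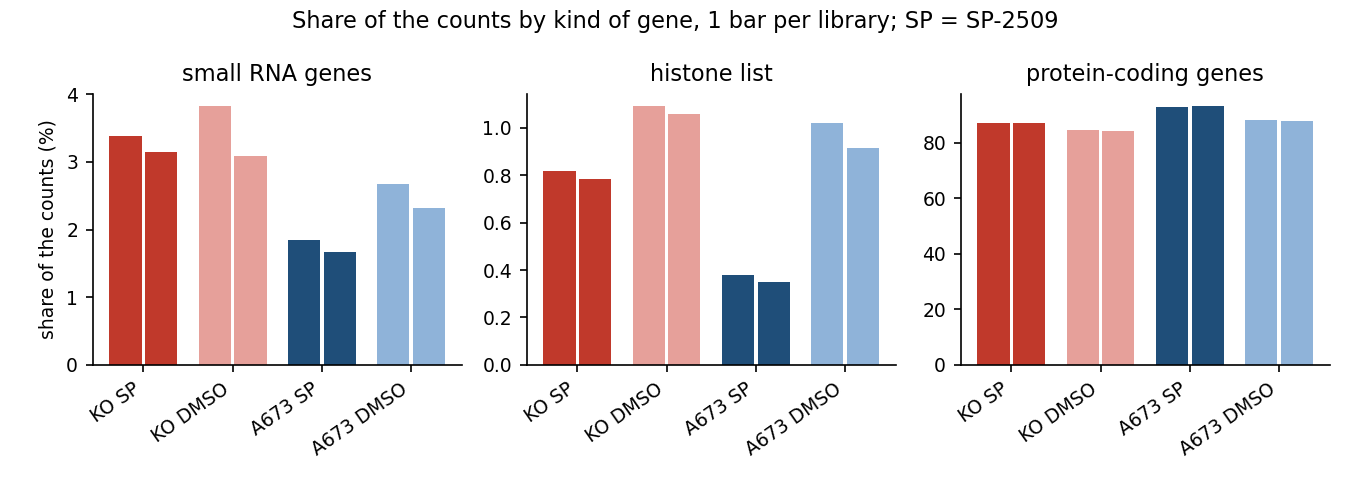
Share of the counts (percent, axes from 0) held by small RNA genes, the histone list and protein-coding genes, with 1 bar per library in KO cells with SP-2509, KO cells with DMSO, A673 with SP-2509 and A673 with DMSO. The A673 libraries with SP-2509 have the lowest small RNA shares (1.84% and 1.67%) and the highest protein-coding shares (92.9% and 93%).

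Among genes of DNA replication and S phase, lower differences outnumbered higher ones. Of 42 tested genes of DNA replication, 1 had a higher difference and 8 a lower one (median -0.15). Over all tested genes 10.7% were called, and of all calls 28.3% were higher. RRM2, the small subunit of ribonucleotide reductase, rose by 1.06 in the KO line and by 1.61 in A673 (difference -0.55 ± 0.09), and E2F2 differed by -0.50 ± 0.10. The 8 lower members numbered 3 without the first DMSO library of A673, without the second DMSO library of the KO line or without its second SP-2509 library, 5 without the first SP-2509 library of A673 and 4 without the second.

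Interferon-stimulated genes, many of which encode antiviral proteins, were the list with the lowest median difference among those with at least 26 tested members. Of 36 members, 15 had a lower difference and 0 a higher one, with a median of -0.62. In the KO line 22 members fell and 8 rose (median -0.82), and in A673 14 fell and 10 rose (median -0.45). IFIT3, a tetratricopeptide antiviral protein, had 3.19 and 3.03 CPM in KO cells with SP-2509 and 5.27 and 4.83 CPM in KO cells with DMSO, against 6.24 and 6.59 CPM in A673 with SP-2509 and 4.72 and 4.53 CPM in A673 with DMSO. The lines lay close with DMSO and parted with SP-2509, falling in the KO line and rising in A673, with a difference of -1.17 ± 0.17 (Benjamini-Hochberg adjusted p = 3.40e-05, quasi-likelihood test of edgeR). The oligoadenylate synthetase genes OAS1 (-1.51 ± 0.23) and OAS3 (-0.73 ± 0.10), IFIT1 (-1.52 ± 0.29) and IFITM3, which blocks viral entry (-0.64 ± 0.10), fell in both lines and fell further in the KO line. With DMSO 4 members were higher and 5 lower in the KO line than in A673, and with SP-2509 2 were higher and 21 lower. The 15 lower members numbered 9 without the second SP-2509 library of A673, and 8 of 17 tested with a mean CPM of 5 or more.

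The promoters of interferon genes that moved together are shown for the interferon-stimulated response element, a sequence known from promoters of such genes. The motif searched was GAAANNGAA on both strands of the 250 bases before and 50 bases from each RefSeq gene start (GRCh38.p14), and capitals mark its matches. It occurred in 21 of 30 list members with a promoter in the table (70%) and in 10 of 14 with a called difference (71.4%), against 2264 of 27305 promoters overall (8.29%). Among tested genes it occurred in 805 of 12510 promoters (6.43%). The pieces below lie on the plus strand at chr10:89392463-89392574 (IFIT1), chr10:89327797-89327929 (IFIT3) and chr12:112938286-112938515 (OAS3) and on the minus strand at chr11:320842-320957 (IFITM3). The OAS1 promoter window held no match. A match describes letters and shows no binding in these cells.
IFIT1: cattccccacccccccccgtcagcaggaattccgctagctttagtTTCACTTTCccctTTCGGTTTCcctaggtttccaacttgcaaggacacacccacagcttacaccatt
IFIT3: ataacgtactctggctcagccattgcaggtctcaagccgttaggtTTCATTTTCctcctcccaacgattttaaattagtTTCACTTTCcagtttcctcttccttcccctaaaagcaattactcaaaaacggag
OAS3: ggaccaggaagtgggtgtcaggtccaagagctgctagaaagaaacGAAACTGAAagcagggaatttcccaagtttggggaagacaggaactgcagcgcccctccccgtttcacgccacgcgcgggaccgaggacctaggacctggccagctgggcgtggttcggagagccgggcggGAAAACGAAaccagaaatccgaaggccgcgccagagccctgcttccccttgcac
IFITM3: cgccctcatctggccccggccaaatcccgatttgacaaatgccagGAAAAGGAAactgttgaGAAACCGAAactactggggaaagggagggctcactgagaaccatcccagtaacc

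MHC class I presentation had 1 higher and 4 lower of 16 (median -0.15, and -0.35 to -0.08 over the alternatives). Among all tested genes 10.7% were called, and 28.3% of those calls were higher. The higher call was lost without the first DMSO or first SP-2509 library of A673 or the first DMSO or first SP-2509 library of the KO line, and with a mean CPM of 5 or more 2 were lower. HLA-C, a class I heavy chain, fell by 0.92 in the KO line and by 0.36 in A673 (difference -0.56 ± 0.09).

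Most cholesterol synthesis genes fell in both lines, and every called difference among them was lower. Of 26 members of the sterol pathway, 25 fell in the KO line (median -1.63) and 24 in A673 (median -1.27), and 12 had a lower difference and 0 a higher one (median -0.28). INSIG1, which retains the sterol sensor SCAP in the endoplasmic reticulum, had 9.39 and 8.58 CPM in KO cells with SP-2509 and 89.8 and 87.0 CPM in KO cells with DMSO, against 16.6 and 17.3 CPM in A673 with SP-2509 and 92.8 and 92.6 CPM in A673 with DMSO. The lines differed little with DMSO, and with SP-2509 the KO libraries lay below the A673 libraries (difference -0.85 ± 0.09; Benjamini-Hochberg adjusted p = 1.06e-06, quasi-likelihood test of edgeR). MVK, mevalonate kinase, also fell in both lines and further in the KO line (-1.11 ± 0.11). With DMSO 3 members were higher and 7 lower in the KO line than in A673, and with SP-2509 1 was higher and 20 lower.

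Related lipid genes with a called difference were lower too, in 2 short lists with few calls. Most calls over all tested genes were also lower, with 28.3% higher, and 10.7% of tested genes were called. Fatty acid synthesis had 4 lower and 0 higher of 13 (median -0.19), among them the desaturases SCD (-0.47 ± 0.09) and FADS1 (-0.63 ± 0.09). Targets of the sterol receptor LXR had 4 lower and 0 higher of 14 (median -0.29), among them NPC1, which exports cholesterol from lysosomes. NPC1 had 82.4 and 80.2 CPM in KO cells with SP-2509 and 63.8 and 62.8 CPM in KO cells with DMSO, against 149 and 147 CPM in A673 with SP-2509 and 71.1 and 81.7 CPM in A673 with DMSO. It rose in both lines and less in the KO line (-0.59 ± 0.11).

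Lysosome and autophagy genes, many of them targets of TFEB and related factors, had no higher difference among those called. Of 43, 18 had a lower difference and 0 a higher one (median -0.34), with 23 rising and 10 falling in the KO line (median 0.29) and 29 rising and 9 falling in A673 (median 0.57). RRAGD, a Rag GTPase that recruits mTORC1 to lysosomes, had 16.01 and 15.6 CPM in KO cells with SP-2509 and 10.5 and 10.5 CPM in KO cells with DMSO, against 22.2 and 23.5 CPM in A673 with SP-2509 and 6.54 and 6.91 CPM in A673 with DMSO. The KO line was above A673 with DMSO and below it with SP-2509 (difference -1.17 ± 0.13; Benjamini-Hochberg adjusted p = 1.09e-06, quasi-likelihood test of edgeR). TFEC, a transcription factor of the TFEB family, fell by 1.21 in the KO line and had 0.15 in A673, not called (difference -1.36 ± 0.14). CTSL, cathepsin L, fell further in the KO line (-1.01 ± 0.12), and GPNMB, a lysosomal glycoprotein, rose less there (-0.86 ± 0.12). With DMSO 13 members were higher and 9 lower in the KO line than in A673, and with SP-2509 4 were higher and 22 lower.

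Iron genes had 4 lower and 0 higher of 16 (median -0.10), and NRF2 targets 4 lower and 0 higher of 29 (median -0.14). HMOX1 and FTL are counted in both. Over all tested genes 10.7% were called, and the NRF2 count lay near that share. FTL, the ferritin light chain, rose by 0.60 in the KO line and by 1.15 in A673 (-0.55 ± 0.08). CYBRD1, a ferric reductase, fell by 0.60 in the KO line and rose by 0.57 in A673 (-1.17 ± 0.10), and ACO1, the iron regulatory protein 1, fell further in the KO line (-0.59 ± 0.10). AKR1C1, an aldo-keto reductase of the NRF2 list, fell by 2.03 in the KO line and by 1.19 in A673 (-0.84 ± 0.19).

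Among genes of the integrated stress response, higher differences outnumbered lower ones. Of 43 tested ATF4-related genes, 16 had a higher difference and 1 a lower one (median 0.20), while the median responses were 0.04 in the KO line and 0 in A673. TRIB3, a pseudokinase that binds ATF4, had 374 and 385 CPM in KO cells with SP-2509 and 69.2 and 83.3 CPM in KO cells with DMSO, against 224 and 229 CPM in A673 with SP-2509 and 91.1 and 99.8 CPM in A673 with DMSO. The KO line was below A673 with DMSO and above it with SP-2509 (difference 1.07 ± 0.10; Benjamini-Hochberg adjusted p = 8.88e-08, quasi-likelihood test of edgeR). ATF5, a transcription factor translated under stress, rose by 2.01 in the KO line and by 1.22 in A673 (0.79 ± 0.11). SESN2, a leucine sensor of the mTORC1 pathway, rose by 0.45 in the KO line and fell by 0.42 in A673 (0.87 ± 0.12). CHAC1, which degrades glutathione, fell in both lines and less in the KO line (1.44 ± 0.16). With DMSO 3 members were higher and 28 lower in the KO line than in A673, and with SP-2509 11 were higher and 12 lower.

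The ATF4 element, searched as TGATGNAA on both strands of the same promoter windows, matched 8 of 33 members (24.2%) and 1003 of 27305 promoters (3.67%). That of CHAC1 is shown, on the plus strand at chr15:40953221-40953314 (GRCh38.p14, RefSeq), with the match in capitals. The windows of TRIB3, ATF5 and SESN2 held none. Other motifs were searched in the same windows. The sterol regulatory element (TCACNCCAC) matched 1 of 19 cholesterol synthesis members (5.26%), against 1.13% of tested genes. The AP-1 site (TGANTCA) matched 1 of 23 immediate early members (4.35%, against 5.08%). The TEAD site (CATTCC) matched 7 of 19 YAP and TAZ members (36.8%, against 11.1%).
CHAC1: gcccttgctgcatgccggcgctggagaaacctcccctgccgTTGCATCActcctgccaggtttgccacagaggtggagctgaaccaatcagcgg

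Immediate early genes, which follow growth factor and MAP kinase signals, mostly rose in both lines. Of 32, 31 rose in the KO line (median 1.69) and 28 in A673 (median 1.25), and 9 had a higher and 2 a lower difference (median 0.12). FOS had 66.3 and 65.2 CPM in KO cells with SP-2509 and 11.8 and 9.09 CPM in KO cells with DMSO, against 64.0 and 61.5 CPM in A673 with SP-2509 and 25.7 and 21.2 CPM in A673 with DMSO. The lines lay close with SP-2509 and apart with DMSO (1.24 ± 0.15; Benjamini-Hochberg adjusted p = 7.36e-05, quasi-likelihood test of edgeR). FOSB (1.6 ± 0.22) and ETV4 (0.92 ± 0.10) were also higher, and KLF6 was lower (-0.57 ± 0.08). With DMSO 4 members were higher and 18 lower in the KO line than in A673, and with SP-2509 5 were higher and 16 lower.

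YAP and TAZ targets, genes of the Hippo pathway that include AXL, mostly rose in both lines, and 11 had a lower difference. Of 26, 21 rose in the KO line (median 1.38) and 24 in A673 (median 1.68), with 0 higher differences and a median difference of -0.19. MYOF, the membrane repair protein myoferlin, differed by -1.13 ± 0.13, and TGFB2, a TGF-beta ligand, by -1.0 ± 0.17. The 11 lower members numbered 5 without the first DMSO library of A673 and 7 without its first SP-2509 library, and 2 members were called higher with upper-quartile factors, with a mean CPM of 5 or more, without the first DMSO library of A673 or with protein-coding genes alone.

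Genes that EWSR1-FLI1 represses mostly rose with SP-2509 in both lines, and lower differences outnumbered higher ones, as over all tested genes. Of 36, 25 rose in the KO line (median 1.09) and 28 in A673 (median 1.27), and 3 had a higher and 11 a lower difference (median -0.25). Higher ones made up 21.4% of the calls in this list and 28.3% of all calls, and 10.7% of all tested genes were called. LOX, which crosslinks collagen, had 117 and 107 CPM in KO cells with SP-2509 and 21.1 and 20.8 CPM in KO cells with DMSO, against 136 and 135 CPM in A673 with SP-2509 and 17.2 and 16.7 CPM in A673 with DMSO. It rose in both lines, and the KO libraries lay above A673 with DMSO and below it with SP-2509 (-0.58 ± 0.09). COL5A1, a fibrillar collagen chain, fell in the KO line and rose in A673 (-0.74 ± 0.11), while SPRY4, an inhibitor of receptor kinase signalling, was higher (0.56 ± 0.10). The 11 lower members numbered 6 without the first DMSO library of A673 and 7 without its first SP-2509 library.

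Genes that EWSR1-FLI1 activates had 5 higher and 11 lower of 42 (median -0.11). Higher ones were 31.2% of the calls in this list, near the 28.3% of all calls. Among all tested genes 10.7% were called. LOXHD1 fell by 0.66 in the KO line and rose by 0.56 in A673 (-1.21 ± 0.11). CCND1, cyclin D1, stood at 1685 and 1695 CPM in KO cells with SP-2509 and at 1073 and 1130.0 CPM in KO cells with DMSO, against 1883 and 1785 CPM in A673 with SP-2509 and 1719 and 1920.0 CPM in A673 with DMSO. Only the KO libraries with DMSO were low (0.61 ± 0.09). The hydrolase ABHD6 (0.58 ± 0.08) and the POU factor POU3F1 (0.73 ± 0.10) were higher too. The 11 lower members numbered 6 without the first DMSO or the first SP-2509 library of A673, 7 without its second SP-2509 library, and 5 without the second DMSO or the second SP-2509 library of the KO line.

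**Figure D5:**
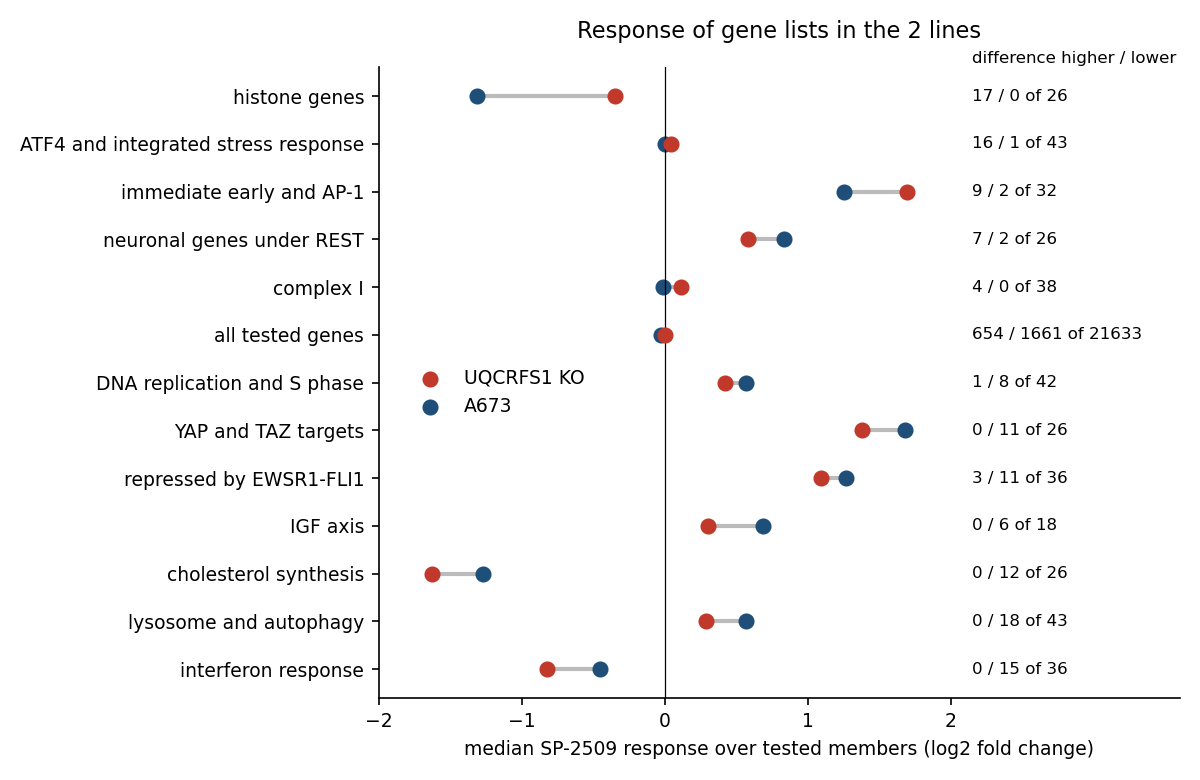
Median SP-2509 response over the tested members of 12 lists and over all tested genes (horizontal axis, log2 fold change; red, UQCRFS1 KO; blue, A673), with the number of members whose difference was called higher and lower at the right. The red dot lies right of the blue one most widely for histone genes (-0.35 against -1.31). It lies left of the blue one most widely for the IGF axis (0.30 against 0.69). Interferon, cholesterol, lysosome, YAP and TAZ, neuronal, EWSR1-FLI1-repressed and DNA replication genes have it on the left too.

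Of 38 genes of respiratory complex I, 4 had a higher difference and 0 a lower one (median 0.05), where 10.7% of all tested genes were called. The count was 7 with the replicate number as a block, 8 with protein-coding genes alone and 2 with RLE factors. It was 1 without the first DMSO library of A673 or the first SP-2509 library of the KO line, and 2 without either SP-2509 library of A673 or the first DMSO library of the KO line. Of 16 complex III genes 1 did, UQCC3, an assembly factor (0.46 ± 0.14; Benjamini-Hochberg adjusted p = 0.04, quasi-likelihood test of edgeR), and its value was 0.32 to 0.64 over the alternatives. Its call was lost in 9 of them, among them every leave-out of 1 library except that of the second DMSO library of the KO line. Of 15 genes of the mitochondrial genome, edgeR and DESeq2 called 0 and 0 had an unadjusted p under 0.05 in edgeR (median 0.16, and -0.18 without the first DMSO library of A673). Complex III had 4 higher members with a mean CPM of 5 or more or with protein-coding genes alone, 3 with upper-quartile factors, 2 with the replicate number as a block, and 0 with DESeq2, with no filter or in 6 of 8 leave-outs. Of 28 genes of LSD1 complexes, again near the share over all genes, 0 had a higher and 3 a lower difference, among them RCOR1, the corepressor that binds LSD1 (-0.43 ± 0.08).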

How the data were processed

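Raw read counts per gene and library were used as deposited by the authors, per the file headers, in 16 libraries of 8 groups, 8 of them from the lines compared. The submitters' processing notes name FastQC, MultiQC, Trim Galore, STAR 2.5.2b, DESeq2 and hg19, without roles; the counting program, annotation and strand setting were not given in the sources used here. The deposited tables were joined by gene identifier, and columns repeated between tables held identical counts.

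Counts were fitted in edgeR 4.0.16 (R 4.3.3, limma 3.58.1) with TMM factors, edgeR's expression filter by group, 8 group means over all 16 libraries and robust quasi-likelihood tests, with Benjamini-Hochberg adjustment over all 21633 tested genes and a threshold of 0.05. Genes without a symbol kept their identifier and stayed in the fit; they held 2.405% to 8.588% of the counts, least in A673 with SP-2509. CPM were computed from TMM-scaled library sizes. Log2 fold changes use edgeR's prior count of 0.125. The fit recovered 66%, 86%, 100% and 98% of 50 genes each with simulated response differences of 1.5-, 2-, 3- and 4-fold among 21215 genes.

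Always named were UQCRFS1, KDM1A, EWSR1 and FLI1. Other named genes had at least 10 counts over each group, a mean of at least 5 CPM in the highest group, a called difference and library-by-library changes that did not overlap between the lines; they were then taken by size within each class, or by the smallest p, up to 4 per list. Kept genes were taken by the size of the smaller response among those with an interval within 1.5-fold. Some named genes are not reported here. Members and lists were chosen with earlier results of these data known.

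Same-numbered libraries deviated together from their group means in all 28 pairs of groups (correlations 0.15 to 0.67), so the replicate number was also fitted as a block; no label says what the number marks. Alternatives were RLE and upper-quartile factors, no filter, a mean of at least 5 CPM, DESeq2 1.42.0, the 8 libraries alone, other fold minimums, each library left out in turn and, chosen after seeing the data, protein-coding genes (GENCODE 29) without the histone list. Promoters came from RefSeq (GRCh38.p14), matched by symbol or synonym for 12526 tested genes; no coordinates were converted between builds.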

Additional observations from a re-analysis of the deposited data

Results flagged for a closer look

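A difference between the lines in the response to SP-2509, tested as an interaction in edgeR, was called for 2315 genes. Among the genes named by class, the values below are the response of the UQCRFS1 KO line minus that of A673 on the log2 scale. Each passed the test of the difference, and no explanation was weighed.

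Lost risers were AXL (-2.38), TGM2 (-1.74), FAM19A2 (-1.41) and EHD2 (-1.33), and lost fallers were SLC25A25-AS1 (1.23), TTYH2 (1.18), TRDN (1.03) and SNORD12 (0.87). Reversed risers were HMOX1 (-2.71) and OPTN (-1.94). Reduced risers were MGLL (-1.93), CD44 (-1.71) and SH2D5 (-1.71), and reduced fallers were HIST1H3J (2.07), HIST1H1D (1.88) and HIST1H1B (1.71). Enlarged risers were TAC1 (2.14), PTPRO (1.63) and MMP1 (1.27), and enlarged fallers were DCN (-1.54), IFIT1 (-1.52) and ATP8B3 (-1.51). Gained risers were EGR1 (1.84), SNORA79 (1.37) and AP3B2 (1.21), and gained fallers were SESN3 (-1.49), ABCG1 (-1.40) and ENTPD3 (-1.38).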

How the results depend on the processing

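With 2 libraries per group the median standard error of a response difference was 0.23 on the log2 scale, and kept or unresolved responses are not shown to be equal. Leaving out 1 library in turn gave 1313 to 2212 called differences, 65 to 116 lost, 349 to 499 reduced, 2857 to 3124 kept, 7 to 17 reversed and 99 to 129 enlarged responses and 57 to 77 gained ones. Among genes averaging 5 CPM or more, A673 had 8305 calls, and 17 responses were lost, 1051 kept, 2 reversed and 14 gained. DESeq2 gave 70 lost and 6 reversed responses, and the fit of protein-coding genes outside the histone list, chosen after seeing the data, gave 55 lost ones. A fold minimum of 1.5 gave 203 lost, 797 reduced, 5474 kept, 29 reversed, 254 enlarged and 172 gained responses, and no fold minimum gave 482, 863, 8326, 146, 464 and 358 of these classes in the same order; more genes enter under a lower minimum by construction, and for the other settings the cause was not tested. With the replicate block 3018 differences were called (991 higher, 2027 lower), 2311 of them among the 2315, and no call of a named gene changed. Of 134 named genes with a called difference, 106 were called the same way under every alternative run that tested them. Another 28 lost the call in at least 1 run, and none changed sign. The fit of genes averaging 5 CPM or more left some named genes untested. So did the fit of protein-coding genes, which holds no histone list member.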

Other observations

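Lists of matrix and adhesion genes, which hold LOX, MMP1 and TGFB2 of the report, had both higher and lower differences. Over all tested genes 10.7% were called, and 28.3% of all calls were higher. Collagen and matrix genes had 2 higher and 8 lower of 37 (median -0.14), among them LOXL2, a collagen crosslinking oxidase (-1.13 ± 0.15), and COL12A1, a fibril-associated collagen, which rose by 2.41 in the KO line and by 3.19 in A673. Cadherins and genes of mesenchymal transition had 0 higher and 6 lower of 24 (median -0.24), among them TGFBR1, a TGF-beta receptor (-0.88 ± 0.14). Matrix metalloproteinases and inhibitors had 2 higher and 4 lower of 28 (median 0.05), with MMP16, a membrane-bound protease, higher (1.37 ± 0.26). Genes of the IGF axis had 0 higher and 6 lower of 18 (median -0.27). INSR, the insulin receptor, fell by 0.45 in the KO line and rose by 0.61 in A673, and IGF1 rose by 0.33 in the KO line and by 0.89 in A673. BMP antagonists, ligands and ID genes had 3 higher and 2 lower of 22 (median 0.06, 4 lower with the replicate block), with SMAD6, an inhibitor of BMP signalling, higher (0.73 ± 0.08).

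Neuronal genes under REST had 7 higher and 2 lower of 26 (median 0.08), while the median response was 0.58 in the KO line and 0.83 in A673. VGF, a secreted neuropeptide precursor, rose by 4.57 in the KO line and by 3.42 in A673, and STX1A, a syntaxin of synaptic vesicle fusion, rose by 0.22 in the KO line and by 1.67 in A673. The 7 higher members numbered 4 among genes averaging 5 CPM or more. Chaperones of the ER and cytosol had 4 higher and 0 lower of 26 (median 0), where 10.7% of all tested genes were called. HSPA8, a constitutive chaperone, fell by 0.73 in A673 and had -0.14 in the KO line, not called, while HSPA1A and HSPA1B (0.72 and 0.69) are near-identical copies. Mitochondrial chaperones and proteases had 2 higher and 1 lower of 19 (median 0.03), the lower one being the peptidase PITRM1 (-0.61 ± 0.08). The 2 higher members numbered 0 without the second SP-2509 library of A673, the first DMSO or the first SP-2509 library of the KO line, and 1 without the second DMSO or first SP-2509 library of A673 or the second SP-2509 library of the KO line. Inflammatory cytokines and chemokines had 0 higher and 3 lower of 22 (median -0.33), among them NFKB2 (-0.73 ± 0.15). That count lay near the share of 10.7% over all tested genes. The 3 lower members numbered 1 with DESeq2, with the 8 libraries alone, without the second DMSO or first SP-2509 library of A673 or without the second DMSO or second SP-2509 library of the KO line, and the median was -0.18 without the first DMSO library of A673.

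Targets of p53 had 1 higher and 7 lower of 27 (median -0.12, 4 lower without the second SP-2509 library of A673). For this list and those below, the shares over all tested genes were 10.7% called and 28.3% of calls higher. TP53INP1, a stress protein, rose by 1.23 in A673 and had -0.05 in the KO line, not called. Hypoxia genes had 2 higher and 7 lower of 24 (median -0.22), with 3 lower without the first SP-2509 library of A673 and 4 without its first DMSO library or the second SP-2509 library of the KO line. Glycolysis genes had 2 higher and 3 lower of 24, and their median of -0.02 ranged from -0.08 to 0.08 over the alternatives. Mitosis genes had 1 higher and 4 lower of 25 (median -0.09), with 1 to 5 lower over the alternatives. Among marker lists the difference was higher for 1 and lower for 3 of 13 Ewing sarcoma line markers, higher for 1 and lower for 3 of 10 fibroblast markers, lower for 2 of 6 epithelial markers and called for 0 of 6 blood cell markers. Keratin-associated and cornified envelope genes had 0 higher and 2 lower of 12 (median -1.0, or -0.93 with genes at 3 counts or fewer set at their bound).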
